A study of Mus musculus with 6 samples.

Results

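The neurotrophins are secreted growth factors that act through a small set of receptors, and their expression was examined in mouse pancreatic islets, the clusters of hormone-secreting cells within the exocrine pancreas. The family was taken as 6 genes, the ligands Bdnf and Ntf3 and the receptors Ngfr, Ntrk2, Ntrk3 and Sort1. All probe sets to which the platform annotation gives one of these symbols alone were used, which made 24 of 45101 probe sets on the array, for 5 of 18193 named genes. Ngfr had 3, Bdnf 2, Ntrk2 8, Ntrk3 8 and Sort1 3, while Ntf3 had no probe set named in that way and was not analysed here. The 6 genes were proposed with the pregnancy comparison of these arrays in view, so their differences are given below as a description, without p-values. Islets had been released with collagenase from mice at 12.5 days post coitum (dpc) of pregnancy (3 arrays) and from non-pregnant mice at 0 dpc (3 arrays). Strain, age and the number of animals behind an array are not given in the labels used here. The study asked which factors drive islets to proliferate in pregnancy.

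Each value is a MAS5 signal, an intensity corrected for background and scaled so that every array has the same 2% trimmed mean, here 500.003. Median signals were 86.1 to 100.3. As a guide to background, control probe sets for the bacterial transcript TrpnX gave 1.1 to 32.3. The beta cell hormone Ins2 had a mean signal of 20510.2 ± 2025 (SD, n = 3) in pregnant and 18776 ± 1771 (n = 3) in non-pregnant islets. Whether arrays of a group are different animals or repeats of one islet preparation is not stated, so p-values reflect the spread among arrays, possibly technical. The labels name no batch. The number of arrays limits the precision.

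Neurotrophins are made as precursors, the proneurotrophins, that are cut to mature ligands. Mature ligands bind Trk receptor tyrosine kinases, and both forms bind the p75 neurotrophin receptor, which Ngfr encodes. BDNF acts on TrkB, the product of Ntrk2, and neurotrophin 3 acts mainly on TrkC, the product of Ntrk3. Sortilin, the product of Sort1, is a sorting receptor of the VPS10 domain family that joins p75 in binding proneurotrophins and also carries cargo between the Golgi, the cell surface and lysosomes. In the pancreas this system is known from islet cells and from the nerves and glia around islets.

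In their brightest probe sets the receptors Ngfr, Ntrk2 and Sort1 did not overlap between the groups, which held for 27.7% of all probe sets tested. Each of these genes also had a dimmer probe set that overlapped. Ngfr was 3.34 times as high in pregnant as in non-pregnant islets, Ntrk2 was 1.45 times as high, and Sort1 was at 0.721 of the non-pregnant level, each in its brightest probe set. Bdnf and Ntrk3 overlapped between the groups in every probe set. Because islets are a mixture, a change in the number of cells of a type and a change in RNA per cell cannot be told apart in these values.

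Bdnf, a ligand of TrkB, was dim in both of its probe sets. Probe set 1422169_a_at gave signals of 61.5, 105.5 and 100.2 in pregnant islets, against 91.1, 144.7 and 117.7 in non-pregnant islets. Probe set 1422168_a_at gave 128.4, 73.5 and 81.5 in pregnant islets, against 79.7, 152.2 and 86.1 in non-pregnant islets. The groups overlapped in both, and the highest pregnant array was not the same array in the 2 probe sets. The log2 differences, pregnant minus non-pregnant on the log2(signal + 16) scale, were -0.36 ± 0.27 (SE) and -0.13 ± 0.29. The second of these was 0.13 without non-pregnant replicate 2, so it had no stable direction.

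Ngfr, the p75 receptor, had the largest difference of the family. Its probe set 1454903_at gave signals of 331.9, 340.6 and 288 in pregnant islets, against 101.5, 115.6 and 70.4 in non-pregnant islets. All 3 pregnant arrays lay above all 3 non-pregnant arrays, and the lowest pregnant signal was well clear of the highest non-pregnant one. The means were 320.2 ± 28.2 (SD, n = 3) and 95.8 ± 23.1 (n = 3), and the log2 difference was 1.61 ± 0.20 (SE), at the 99.8 percentile of all probe sets tested. The pseudocount of 16 lowers the difference of such a dim probe set, which was 1.76 with a pseudocount of 1 and 1.27 with a pseudocount of 64. The difference rested on this 1 probe set. Probe set 1450177_at gave 40, 50.4 and 10.1 in pregnant islets, against 5.8, 39.8 and 87 in non-pregnant islets, with overlap. Probe set 1421241_at gave 13.1, 6.5 and 8.3 in pregnant islets, against 6, 5 and 6.3 in non-pregnant islets. Its groups did not overlap, but all 6 signals were within the span of the TrpnX controls. Both were too dim to be tested.

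Ntrk2, the TrkB receptor, was clearly present in its brightest probe set and higher there in pregnancy. Probe set 1420838_at gave 3305.6, 3253.7 and 3298.3 in pregnant islets, against 2421.9, 2096.9 and 2258.9 in non-pregnant islets. The pregnant arrays lay close together and above every non-pregnant array. The means were 3286 ± 28.1 (SD, n = 3) and 2259 ± 162.5 (n = 3), with a log2 difference of 0.54 ± 0.07 (SE). The other probe sets of Ntrk2 differed less or with more spread. Probe set 1435196_at gave 1031.5, 1115.7 and 921.2 in pregnant islets, against 961, 877.2 and 905.2 in non-pregnant islets, which overlapped, with a log2 difference of 0.16 ± 0.10. Probe set 1458622_at gave 160.8, 165.8 and 130.5 in pregnant islets, against 103, 122.5 and 91.6 in non-pregnant islets. These groups did not overlap, and the log2 difference was 0.47 ± 0.21. Probe sets 1435305_at (0.40 ± 0.22) and 1420837_at (0.07 ± 0.22) overlapped between the groups. The difference of 1420837_at was -0.054 without pregnant replicate 3. The 3 dimmest probe sets gave log2 differences of -0.08 to 0.86 and overlapped.

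The 2 brightest Ntrk2 probe sets did not differ by the same amount. Within each array the log2 value of 1420838_at exceeded that of 1435196_at by 1.66, 1.53 and 1.82 in pregnant islets, against 1.32, 1.24 and 1.30 in non-pregnant islets. The groups did not overlap in this ratio, whose mean was 1.67 ± 0.15 (SD, n = 3) in pregnant and 1.29 ± 0.04 (n = 3) in non-pregnant islets. Ntrk2 is known to give full-length and truncated receptors from alternative transcripts. Which transcripts each probe set reads was not determined here.

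Ntrk3, the TrkC receptor, was dim. Only 1 of its 8 probe sets was bright enough to be tested, 1422329_a_at, which gave 48, 40.3 and 90.1 in pregnant islets, against 51.7, 92 and 76.3 in non-pregnant islets. The groups overlapped and the log2 difference was -0.27 ± 0.34 (SE). The other 7 probe sets overlapped too, with log2 differences of -0.58 to 0.08. The brightest of them, 1433825_at and 1443970_at, had mean log2 values of 5.85 and 5.83, just under the limit of 6.06 for testing, while the tested one had 6.32.

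Sort1, the sorting receptor sortilin, was lower in pregnancy. Probe set 1423362_at gave 1820.6, 1850.9 and 2009.7 in pregnant islets, against 2725.9, 2257.4 and 2893.2 in non-pregnant islets. Every pregnant array lay below every non-pregnant array, with non-pregnant replicate 2 nearest to them. The means were 1894 ± 101.6 (SD, n = 3) and 2625.5 ± 329.6 (n = 3), and the log2 difference was -0.46 ± 0.09 (SE). The 2 dimmer probe sets also averaged lower. Probe set 1423363_at gave 117.5, 173.3 and 72.2 in pregnant islets, against 162.6, 161 and 173.8 in non-pregnant islets, a log2 difference of -0.48 ± 0.26. Probe set 1450955_s_at had a log2 difference of -0.25 ± 0.20, and both dim probe sets overlapped between the groups. Leaving out 1 array moved the first to -0.19 (pregnant replicate 3) and the second to -0.08 (pregnant replicate 2).

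**Figure D1:**
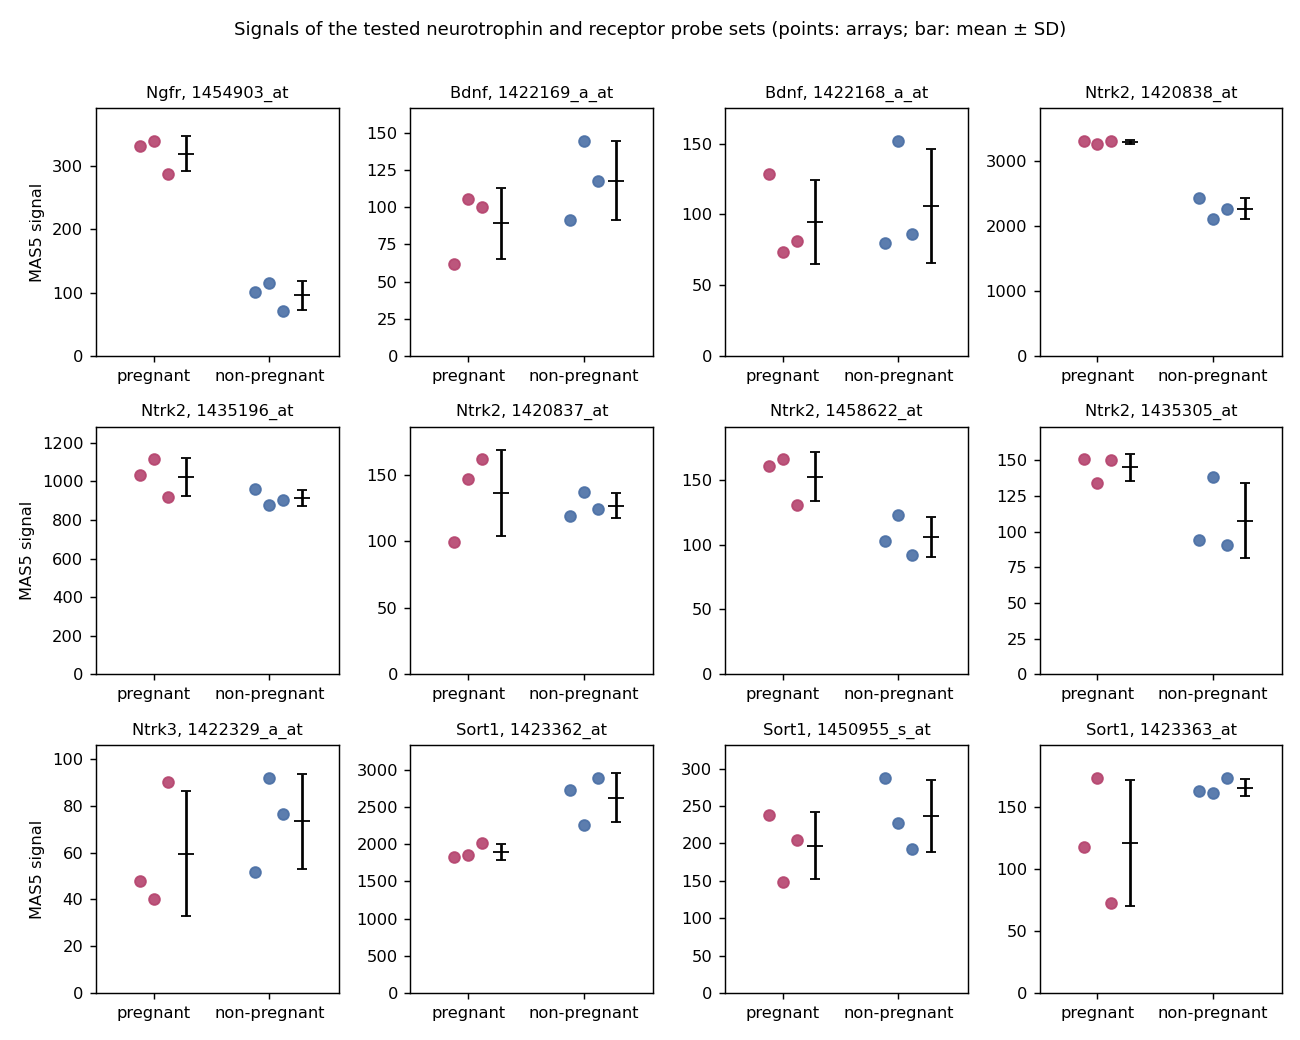
MAS5 signal (vertical axes, linear from 0) of the 12 tested probe sets of the family on each array, with pregnant arrays on the left and non-pregnant arrays on the right of each panel. Points are arrays and bars are means ± SD (n = 3). Ngfr 1454903_at, Ntrk2 1420838_at and 1458622_at, and Sort1 1423362_at separate the groups, and the other 8 overlap.

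In the fit across all probe sets (limma, Benjamini-Hochberg adjusted p under 0.05), 3 of the 12 tested probe sets of the family passed, the brightest ones of Ngfr, Ntrk2 and Sort1. Of all 27022 probe sets tested, 9.57% passed, 4.79% as higher in pregnant islets, as Ngfr and Ntrk2 were, and 4.78% as lower, as Sort1 was. The groups did not overlap in 4 of the 12, where this held for 27.7% of all probe sets tested. Nothing is read from these shares, since the family was proposed from this comparison. The call of Ngfr was kept in all 16 alternatives that could give it. That of Sort1 was lost without the variance trend, and that of Ntrk2 was lost when the probe sets of a gene were averaged, where its log2 difference was 0.30. The average of the Ngfr probe sets was too dim to be tested. All alternatives reuse the same arrays, so calls kept there give no independent evidence.

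**Figure D2:**
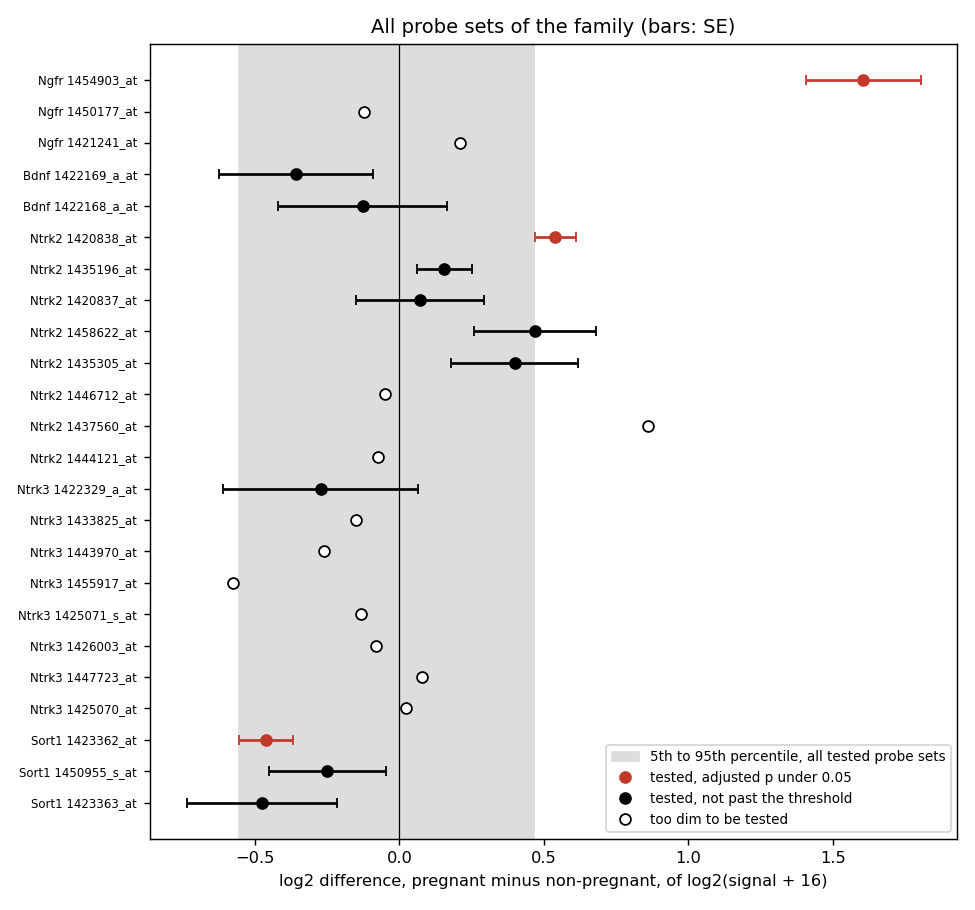
Log2 difference, pregnant minus non-pregnant, of log2(signal + 16) for all 24 probe sets (horizontal axis), with SE bars for the 12 that were tested. The grey band runs from -0.56 to 0.47, the 5th to 95th percentiles of all tested probe sets. Ngfr 1454903_at at 1.61 lies furthest from it, and the 12 open circles are probe sets too dim to be tested.

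Promoter sequence is shown for Ngfr and Ntrk2, the receptors that were higher, from RefSeq on GRCm38.p6. The table used held 1 promoter for each of these and none for Ntrk3 or Sort1. The Ngfr window covers chr11:95587699-95587948 on the minus strand, the 250 bases before the annotated start. The Ntrk2 window covers chr13:58806319-58806471 on the plus strand, 153 bases that end at the base before the gene's annotated start. Both are written 5′ to 3′, and capitals mark GC boxes, the motif GGGCGG searched on both strands, which the Sp family of factors is known to bind.
Ngfr: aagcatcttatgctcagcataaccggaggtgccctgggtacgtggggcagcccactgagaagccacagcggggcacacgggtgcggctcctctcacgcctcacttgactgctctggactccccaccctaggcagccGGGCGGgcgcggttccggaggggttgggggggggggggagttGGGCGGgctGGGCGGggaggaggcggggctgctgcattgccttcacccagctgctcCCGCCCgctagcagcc
Ntrk2: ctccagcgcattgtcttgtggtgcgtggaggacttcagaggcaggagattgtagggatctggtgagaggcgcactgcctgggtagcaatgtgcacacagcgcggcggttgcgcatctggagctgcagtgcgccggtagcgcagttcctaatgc
The Ngfr window held 4 GC boxes and was 70.4% G and C, where 32.7% of 32851 promoters held a GC box in the same positions and the median G and C content was 52.4%. The Ntrk2 window held 0 GC boxes, where 17.1% of promoters held one in the same positions, and was 60.8% G and C against a median of 51.0%. Positions were counted from the first base of each promoter sequence, not from the gene start. The Ntrk2 window ends at its gene's annotated start, so the other promoters can be compared there at other distances from their starts. Neither window held the STAT motif TTCNNNGAA (in 7.02% and 4.49% of promoters in the same positions as the Ngfr and Ntrk2 windows) or the cyclic AMP response element TGACGTCA (in 1.55% and 0.384%), searched on both strands. These are matches of letters in these windows and do not show binding.

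The genes with the most similar pattern over the 6 arrays were found by the root mean square difference of log2 values, each gene centred on its own mean, among 12913 other genes. For Ngfr these were Slc2a13, a myo-inositol transporter (0.08), Ttyh1 (0.11) and Lonrf3 (0.15). Slc2a13 had a mean signal of 1562 ± 46.2 (SD, n = 3) in pregnant and 472 ± 90.5 (n = 3) in non-pregnant islets. For Ntrk2 they were Paip2b (0.01), Lman1, a cargo receptor between the endoplasmic reticulum and the Golgi (0.03), and Copz2, a subunit of the COPI vesicle coat (0.04). Lman1 had 10805 ± 38.4 in pregnant and 7594 ± 377.6 in non-pregnant islets. For Sort1 they were Cwf19l1 (0.02), Sike1 (0.05) and Vwa5b2 (0.05), of which Vwa5b2 had 698.7 ± 33.0 in pregnant and 924.1 ± 100.8 in non-pregnant islets. With 6 arrays in 2 groups, this likeness is mostly that of the group difference, and no test was made of it.

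Other genes of the neurotrophin system were not part of the rule and were tested in the same fit, each by its brightest probe set. Their lists, and the marker lists further below, were chosen with earlier results of these data known. The p-values of these genes are therefore a description and give no independent evidence. Ntf5, which encodes neurotrophin 4, another ligand of TrkB, gave 12.3, 20.4 and 22.6 in pregnant islets, against 27.6, 11.1 and 12.8 in non-pregnant islets, within the span of the TrpnX controls and too dim to be tested.

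Of the 4 relatives of sortilin with a VPS10 domain that were tested, 0 passed the limma threshold, where 11.9% of 12914 genes did. Sorl1, which sorts cargo between the Golgi and endosomes, gave 1578.7, 1451.1 and 1346.6 in pregnant islets, against 1292.5, 1455.1 and 1182 in non-pregnant islets, which overlapped (log2 difference 0.16 ± 0.10, limma adjusted p = 0.37). Its 2 dimmer probe sets did not overlap between the groups and had 0.42 ± 0.14 (limma adjusted p = 0.074) and 0.67 ± 0.30 (limma adjusted p = 0.20). Sorcs2, known in mice to bind p75, gave 300, 284.5 and 309.7 in pregnant islets, against 453.4, 337.4 and 335.8 in non-pregnant islets. These groups did not overlap, and the log2 difference of -0.31 ± 0.15 missed the threshold (limma adjusted p = 0.24). Sorcs1 (0.18 ± 0.32, limma adjusted p = 0.81) and Sorcs3 (-0.41 ± 0.35, limma adjusted p = 0.54) were dim and overlapped. At an unadjusted p under 0.05 the count by brightest probe set was 0 as well, while both dimmer probe sets of Sorl1 passed that level.

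Across 96 tested genes of neurotrophin and related signalling, 5 rose and 11 fell, where 6.10% of all genes tested were called higher and 5.79% lower. The median log2 difference of these 96 genes was -0.13, and that of all genes was -0.04. Of 9 genes that process or cleave proneurotrophins, 1 rose and 0 fell, with a median of -0.03. The 1 that rose was Serpini1, neuroserpin, an inhibitor of tissue plasminogen activator, with 1581, 1856.6 and 1533.9 in pregnant islets, against 999.1, 1137.5 and 1075.8 in non-pregnant islets. Its groups were far apart (log2 difference 0.62 ± 0.09, limma adjusted p = 0.0014), but with its probe sets averaged it had 0.25 (limma adjusted p = 0.26) and without the variance trend limma adjusted p = 0.051. Its main target Plat, tissue plasminogen activator, had -0.13 ± 0.11, and Furin, the protease that cuts proneurotrophins, had 0.03 ± 0.14. These 2 genes were singled out after their values were seen, and neither passed.

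Of 14 partners and adaptors of p75, 1 rose and 0 fell, with a median of -0.06. Irak1, a kinase that p75 can recruit, had 6473, 6456 and 6434 in pregnant islets, against 5459, 5580.5 and 5475 in non-pregnant islets (log2 difference 0.23 ± 0.05, limma adjusted p = 0.018). Of 40 adaptors and signalling proteins of Trk receptors, 1 rose and 2 fell, with a median of -0.09. Ptprf, a receptor tyrosine phosphatase, fell to 4474 ± 175 (SD, n = 3) in pregnant islets, against 5625 ± 73.8 (n = 3) in non-pregnant islets (-0.33 ± 0.06, limma adjusted p = 0.0036). Frs3, a docking protein of Trk receptors, fell to 120.4 ± 32.6 in pregnant islets, against 229.8 ± 19.6 in non-pregnant islets (-0.87 ± 0.21, limma adjusted p = 0.022). Sqstm1, the scaffold and autophagy receptor p62, rose by 0.22 ± 0.06 (limma adjusted p = 0.027), a call lost in 10 of 17 alternatives.

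Genes that neurotrophins induce in neurons were lower more than higher. Of 22 tested, 1 rose and 7 fell, with a median log2 difference of -0.22, where 6.10% of all genes tested were called higher and 5.79% lower. Arc, an immediate early gene of synapses, had 1693, 1855.2 and 1527.2 in pregnant islets, against 2752, 2680 and 2186 in non-pregnant islets, with no overlap (-0.58 ± 0.10, limma adjusted p = 0.0034). The AP-1 subunits Fosb (-0.43 ± 0.08, limma adjusted p = 0.0060) and Junb (-0.42 ± 0.09, limma adjusted p = 0.015) fell too. Ret, the receptor tyrosine kinase of the GDNF family, fell to 928.9 ± 198.7 (SD, n = 3) in pregnant islets, against 1486 ± 231.5 (n = 3) in non-pregnant islets (-0.68 ± 0.15, limma adjusted p = 0.014, and -0.44 with its probe sets averaged). The 1 gene that rose was Crem, a cyclic AMP response modulator, by 0.35 ± 0.08 (limma adjusted p = 0.021), named after its value was seen. Without the variance trend 0 of these genes passed, and many of them respond to other stimuli as well.

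The GDNF family, a second group of neurotrophic factors, had 1 gene that rose and 2 that fell of 7 tested, with a median of -0.36. Gfra3, a co-receptor of the GDNF family ligand artemin, had 529.5, 533.9 and 469.9 in pregnant islets, against 296.3, 211.7 and 190.2 in non-pregnant islets. Every pregnant array lay above every non-pregnant one (log2 difference 1.10 ± 0.16, limma adjusted p = 0.0011), and Gfra3 was called in all 17 alternatives. Nrtn, the ligand neurturin, fell by 0.36 ± 0.09 (limma adjusted p = 0.032) and the adhesion molecule Ncam1 fell by 0.30 ± 0.07 (limma adjusted p = 0.024). With its probe sets averaged Ncam1 had -0.11 (limma adjusted p = 0.71). The 16 calls among the 96 genes were 9 with each array centred on its median, 7 without pregnant replicate 1, 7 without pregnant replicate 3, 8 without non-pregnant replicate 2 and 1 without the variance trend.

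**Figure D3:**
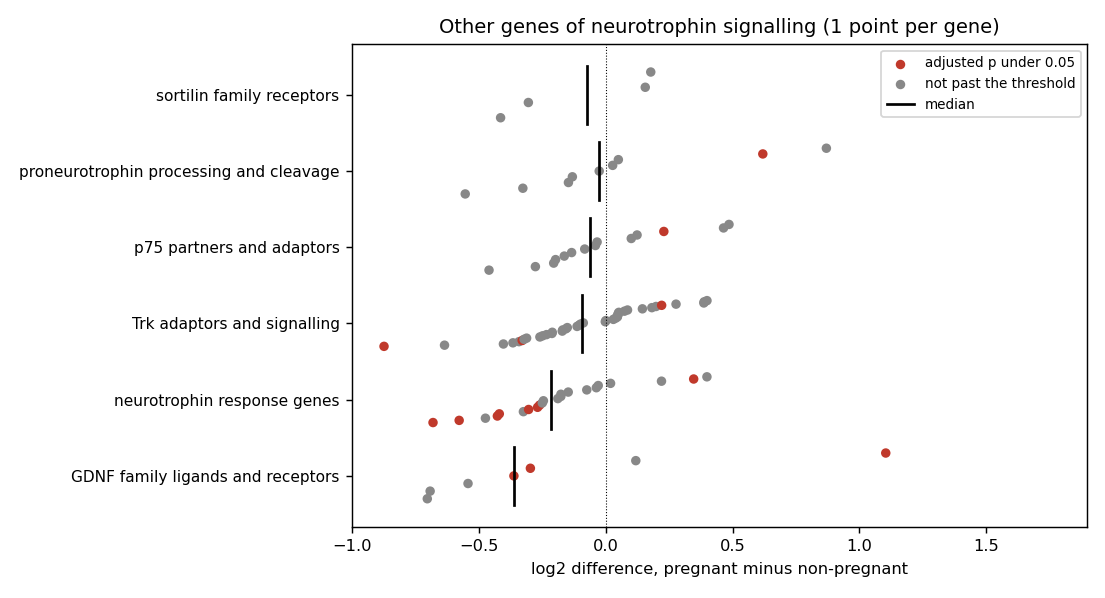
Log2 difference, pregnant minus non-pregnant (horizontal axis), of 96 other genes of neurotrophin and related signalling, 1 point per gene by its brightest probe set, grouped by role. Red points passed the limma threshold and black bars are medians, which run from -0.36 for the GDNF family to -0.03 for proneurotrophin processing. Gfra3 at 1.10 lies furthest to the right.

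Cell types other than endocrine cells carry some of these receptors, so marker lists were read on the same arrays. Ngfr is a known marker of Schwann cells and is also found in neurons and stellate cells. Of 11 Schwann cell and glia markers, 0 rose and 1 fell, Fabp7 (-1.04 ± 0.23, limma adjusted p = 0.013), with a median log2 difference of -0.39. Their summed signal was 3469.8 to 3920.5 in pregnant and 3944 to 4316 in non-pregnant islets. Mbp (log2 difference 0.12 ± 0.09) and Cnp (0.03 ± 0.13) were the brightest in this sum. They were named after their values were seen, and the other markers of the list had negative differences. The Schwann cell factor Sox10, named here for its role, gave 109.2, 122.7 and 107.4 in pregnant islets, against 146.2, 167.2 and 147.4 in non-pregnant islets. Its log2 difference of -0.39 ± 0.19 missed the threshold (limma adjusted p = 0.26). Of 14 neuron markers, 0 rose and 4 fell. The median was -0.43, and summed signals were 14904 to 15796 in pregnant and 15932 to 18061 in non-pregnant islets. Snap25 was the largest part of these sums, with means of 7482 in pregnant and 7289 in non-pregnant islets (log2 difference 0.04 ± 0.07). Nefm was higher in pregnant islets without overlap (0.29 ± 0.10, limma adjusted p = 0.10). Both were named after their values were seen, and the other markers of the list had negative differences. Those that fell were Prph, Stmn2, Nefl and Chrna3, with log2 differences of -1.18 to -0.80 and limma adjusted p of 0.017 to 0.024. Prph had -0.75 without pregnant replicate 1 and lost its call in 5 of 16 alternatives (limma adjusted p = 0.12 with robust eBayes). Chrna3 had -0.44 with its probe sets averaged (limma adjusted p = 0.19) and lost its call in 4 of 16, Nefl in 4 of 17 and Stmn2 in 2 of 17.

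Of 18 stellate cell, pericyte and fibroblast markers, 1 rose and 3 fell. The median was -0.28, and summed signals were 15430.4 to 18723 in pregnant and 19099.8 to 20023 in non-pregnant islets. Dcn, a matrix proteoglycan, fell by 1.20 ± 0.14 (limma adjusted p = 2.8e-04), and the collagen genes Col1a2 (-0.73) and Col3a1 (-0.75) fell too. With probe sets averaged, Col1a2 had -0.20 (limma adjusted p = 0.54) and Dcn -0.78 (limma adjusted p = 0.065), and neither passed. Col6a3, a collagen chain, rose by 0.67 ± 0.09 (limma adjusted p = 5.0e-04). Of 12 macrophage and leukocyte markers, 1 rose and 0 fell. The median was -0.19, and the summed signal was 10254 to 11149 in pregnant and 7119 to 7536 in non-pregnant islets. The 1 that rose was the complement gene C1qa (1.06 ± 0.08, limma adjusted p = 1.1e-05). This 1 gene carried the sum, since the other 11 summed to 3298.3 to 3630 in pregnant and 3683 to 3998.5 in non-pregnant islets. Of 15 endothelial markers 0 rose and 1 fell (Flt1, -0.47, median -0.19). Of 8 duct markers 2 rose, Epcam (0.39) and Krt18 (0.33), and 1 fell, Krt7 (-0.27), with a median of -0.08. Krt7 lost its call in 5 of 17 alternatives. Krt18 and Epcam were bright, with pregnant means of 13291 and 6697. Krt19, Sox9 and Car2 of the same list were dim, with pregnant means of 75.1, 62.7 and 54.7, and did not pass. These were named after their values were seen, and whether the genes that rose reflect duct cells was not tested.

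Among 11 beta cell markers, the convertase Pcsk1 rose (0.94) and the transporters Slc2a2 (-0.25) and Slc30a8 (-0.29) fell. Their median was 0.05, and their summed signals were 186649 to 188774 in pregnant and 179242 to 191118 in non-pregnant islets. Of 10 markers of other islet endocrine cells, 0 rose and 2 fell, Irx1 (-0.40) and Ghrl (-1.14), with a median of -0.10. The hormone genes Gcg, Ppy and Sst and the thyroxine carrier Ttr made up 92.0% of the summed signal of that list, and their signals of 44491 to 55836 lay near the highest on any array (51107 to 64109), as did Iapp of the beta cell list, so these sums say little about the share of endocrine cells. Irx1 lost its call in 9 of 17 alternatives, Slc30a8 in 3 and Slc2a2 in 2.

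Acinar cells secrete the digestive enzymes, and their markers were lower in pregnancy. Of 18 such genes tested, 15 fell and 0 rose. The median was -1.05, and the summed signals were 125330 to 202959 in pregnant and 211197 to 398255 in non-pregnant islets. The 4 with the smallest p were the lipase relatives Pnliprp2 (-1.74) and Pnliprp1 (-1.58), the granule protein Sycn (-1.60) and the elastase Cela1 (-1.08), with limma adjusted p of 0.0017 to 0.0063. All 4 lost their call with robust eBayes (limma adjusted p of 0.098 to 0.17) and without the variance trend (0.079 to 0.12). The median of the list, each gene centred on its mean, was -0.89, -0.57 and -0.22 on pregnant replicates 1, 2 and 3 and 0.89, -0.12 and 0.94 on non-pregnant replicates 1, 2 and 3. Sort1 1423362_at had centred log2 values of -0.29, -0.26 and -0.14 on the pregnant and 0.29, 0.02 and 0.38 on the non-pregnant replicates. In this probe set the arrays ranked in the same order as in the acinar list. The dimmer Sort1 probe sets 1450955_s_at (0.15, -0.47 and -0.05, against 0.41, 0.09 and -0.13) and 1423363_at (-0.21, 0.30 and -0.80, against 0.21, 0.20 and 0.30) did not. How many other genes have this order was not examined. Ntrk2 and Ngfr, in their brightest probe sets, lay the other way round between the groups. The part of endocrine, acinar, glial, neuronal, stellate or immune cells in the values of Ngfr, Ntrk2 and Sort1 was not tested.

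**Figure D4:**
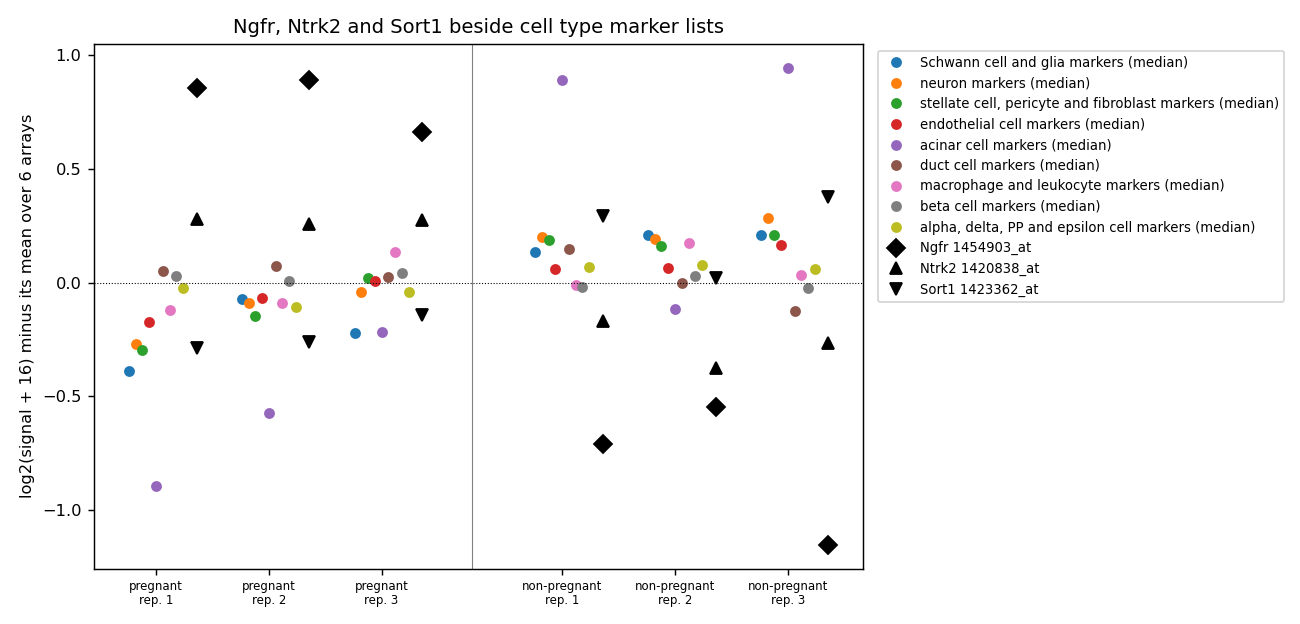
Log2(signal + 16) minus its mean over the 6 arrays (vertical axis) for the brightest probe sets of Ngfr, Ntrk2 and Sort1 (black symbols) and for the median of each cell type marker list (coloured points). The 3 pregnant arrays are on the left and the 3 non-pregnant arrays on the right. Ngfr and Ntrk2 are above 0 on every pregnant array, and Sort1 is below 0 there. The acinar list spans the widest range of the lists, from -0.89 to 0.94.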

How the data were processed

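Pancreatic islet RNA from 3 pregnant and 3 non-pregnant samples was hybridised to Affymetrix arrays, per the labels' protocols. The authors deposited 1 linear intensity per probe set and array, made with MAS5 (per the submitters' processing notes). Its version, settings and detection calls are, in the sources used here, not given. The family members and all gene lists were chosen with earlier results of these data known. Of 45101 probe sets, 64 controls were left out, 34958 had a single symbol, 932 several and 9211 none listed. Values were taken as log2(signal + 16), and the top 60% by mean over all arrays (27022, signals above about 50.5) were tested with limma 3.58.1 in R 4.3.3 (eBayes with a variance trend, 2-sided, Benjamini-Hochberg adjusted p under 0.05). A gene outside the family was represented by its brightest probe set. SE is limma's. The fit was tested on simulated data.

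The text names all members, other neurotrophins, Trk and sortilin family receptors, up to 4 called genes with the smallest p per list, and the 3 genes most like each of 3 members; exceptions are stated. Same-numbered arrays did not deviate together (correlations of -0.07 to 0.03 across probe sets), so the numbers were not taken as pairs. Alternatives were other pseudocounts, normalizations, filters and variance models, a replicate block, array weights, averaged probe sets and leaving out each array. Plots used matplotlib 3.10.9 (Python 3.11.15).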

Additional observations from a re-analysis of the deposited data

How the results depend on the processing

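Of 2587 probe sets called in the comparison, 1294 were higher and 1293 lower. Median centring of arrays gave 1430 higher and 583 lower. A fit without the variance trend gave 393 higher and 210 lower (603 in all). With any 1 array left out the count was 1488 to 2247, lowest without pregnant replicate 1, and 1578 without pregnant replicate 2. The count of family probe sets called was 3, and 2 without the variance trend, where Sort1 did not pass; it was 3 with any 1 array left out. Ngfr had a log2 difference of 1.27 with a pseudocount of 64, and Ntrk2 had 0.62 with median centring and 0.30 with its probe sets averaged. The count of other signalling genes called was 16. It was 9 with median centring, 1 without the variance trend and 7 to 14 with any 1 array left out. Calls were lost in 10 of 17 alternatives for Sqstm1, 9 for Irx1, 8 for Nrtn, 6 for Ncam1 and 5 each for Irak1, Junb and Krt7, in 6 of 16 for Frs3 and in 5 of 16 for Prph. Sorcs1, not called, ranged from -0.054 without non-pregnant replicate 2 to 0.47 without non-pregnant replicate 1. With the replicate number as a block, which paired arrays by number alone, 2356 probe sets, 3 of the family and 18 signalling genes were called, and Nrtn (limma adjusted p = 0.056) and Irx1 (0.051) missed the threshold. The cause of these changes was not tested. Signals near background limit Bdnf, Ntrk3, Ntf5 and 2 of 3 Ngfr probe sets. The tested Ngfr probe set was also dim in non-pregnant islets, with a mean of 95.8, against 117.8 and 106 for the Bdnf probe sets.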
